A study of Mus musculus with 6 samples.

Results

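Chemokines and chemokine receptors were examined in heart RNA from tumour-bearing mice treated with doxorubicin (Dox), with ginsenoside Rh2, or with both. The genes were taken by symbol: names that start with Ccl, Cxcl, Cx3cl, Xcl, Ccr, Cxcr, Cx3cr or Xcr and go on with a number. There were 56 such symbols, and 38 of them, 26 ligands and 12 receptors, averaged 10 or more counts across the 6 libraries, as did 18328 genes in all. The female BALB/c nude mice (CAnN.Cg-Foxn1nu/Crl) were labelled as 6 weeks old, and the Foxn1nu allele leaves them without a working thymus. All of them, the Control mice included, carried subcutaneous tumours of MDA-MB-231, a human breast cancer line. The groups were Control, Rh2-20 mg/kg, its higher dose Rh2-30 mg/kg, Dox, and the combinations Rh2-20 mg/kg + Dox and, at the higher dose, Rh2-30 mg/kg + Dox. Rh2, a ginseng saponin, was injected daily for 3 weeks, and Dox, an anthracycline, was injected at 2 mg/kg every other day to a cumulative 22 mg/kg. Each group is 1 library, made from the pooled hearts of 5 mice and enriched by RNA capture, so no group has a replicate.

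Chemokines are small secreted proteins that guide leukocytes by binding receptors with 7 transmembrane helices, which signal through Gi proteins. Inflammatory chemokines are induced in macrophages, fibroblasts and endothelium by Tnf, interleukin-1 and interferons. Homeostatic ones such as Cxcl12 and Ccl21a are made steadily by stromal and lymphatic cells. In the heart, Ccl2 with Ccr2 is known for drawing in monocytes, Cx3cr1 is carried by macrophages and monocytes, Cxcr2 by neutrophils, and Cxcr5 and Ccr6 by B cells.

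The libraries held 86164411 to 90621002 counts. Summed markers of cardiomyocytes (7 genes, none at 0 in any library) reached 19560 to 26960 CPM, counts scaled to library size by the TMM method, as a heart would give. The Rh2-30 mg/kg library stood apart from the rest: its white fat markers summed to 74.3 CPM against 0.150 to 15.7 in the other libraries, its B cell markers to 36.7 against 7.43 to 14.9, and its cardiomyocyte markers were the lowest. It also held transcripts of other tissues, named after their values were seen: Ucp1 of brown fat had 6442 counts there and 0 to 12 elsewhere, Scgb1a1 of airway epithelium 730 against 9 to 98, the epithelial keratin Krt5 68 against 0, and Upk3b of mesothelium 849 against 102 to 306. The levels of Ccl8, Ccl11, Ccl19, Cxcl13, Cxcr5 and Ccr6, each highest in that library, stand beside these values, whose part in them was not tested. T cell markers summed to 1.67 to 3.74 CPM, and 2 to 4 of the 8 listed were at 0 in each library. Other libraries differed in content too. In Dox, all 4 tested white fat markers (sum 15.7 CPM against 1.46 in Control) and all 5 platelet markers were called higher than Control. In Rh2-20 mg/kg, 4 of 5 mesothelium markers were called lower than Control. The part of these in the chemokine values was not tested.

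In this text, a gene is called between 2 libraries where edgeR's exact test gave a fold of 2 or more with a raw p-value below 0.05. With 1 library a group, that test takes its spread from 1 dispersion of 0.0285 estimated over all 6 libraries (a coefficient of variation of 0.169). A call therefore compares 2 libraries, not 2 treatments, and the 5 comparisons with Control share that library. Where a pair is given an interval, it is the 95% interval of the log2 fold change with this dispersion included. Counts are listed in this order: Control, then Rh2-20 mg/kg, followed by Rh2-30 mg/kg, then Dox, followed by Rh2-20 mg/kg + Dox and last by Rh2-30 mg/kg + Dox. As the tissue is a bulk sample, fewer cells of a type and less RNA per cell cannot be told apart.

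The upstream sequences of 3 ligands are shown, chosen after their values were seen: Cxcl1 was lower in every Dox library, and Cxcl9 and Cxcl10 were lower in both Rh2 + Dox libraries than in Dox. Each is the 250 bases before the RefSeq start (GRCm38.p6, written in the direction of the gene), and lies outside the transcribed part. Cxcl1 is at chr5:90890995-90891244 on the plus strand, Cxcl9 at chr5:92328080-92328329 and Cxcl10 at chr5:92348890-92349139, both on the minus strand. Capitals mark matches, on either strand, to a kappaB-like motif (GGGNNNTTC) or to an interferon response-like motif (GAAANNGAA).

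Cxcl1: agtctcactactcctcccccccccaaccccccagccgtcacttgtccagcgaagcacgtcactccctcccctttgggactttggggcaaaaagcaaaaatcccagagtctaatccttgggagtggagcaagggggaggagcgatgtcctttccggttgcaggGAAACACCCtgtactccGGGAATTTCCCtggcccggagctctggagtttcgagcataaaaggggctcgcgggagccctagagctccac

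Cxcl9: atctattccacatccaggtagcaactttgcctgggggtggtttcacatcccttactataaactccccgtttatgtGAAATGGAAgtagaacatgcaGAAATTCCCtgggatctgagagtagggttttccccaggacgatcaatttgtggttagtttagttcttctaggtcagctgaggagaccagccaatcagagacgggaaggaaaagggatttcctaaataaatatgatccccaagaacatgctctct

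Cxcl10: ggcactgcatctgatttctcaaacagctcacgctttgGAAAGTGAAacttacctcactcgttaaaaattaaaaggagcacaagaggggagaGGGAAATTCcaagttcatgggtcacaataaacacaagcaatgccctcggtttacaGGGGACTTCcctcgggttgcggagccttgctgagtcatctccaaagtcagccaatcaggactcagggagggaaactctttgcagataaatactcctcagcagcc

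The kappaB-like letters occur 3 times before Cxcl1, at -88 to -80, -71 to -63 and -69 to -61 from the start, the last 2 overlapping. Before Cxcl10 they occur at -159 to -151 and -104 to -96, and before Cxcl9 at -154 to -146. Interferon response-like letters occur at -213 to -205 before Cxcl10 and at -175 to -167 before Cxcl9, and do not occur in the Cxcl1 window. Of the 32851 windows of this length in the table, 11.8% hold the first motif and 7.13% the second. The 38 genes had 33 windows for 26 of them, with matches in 8 windows and 6 windows. A match is a run of letters and says nothing of binding.

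Per transcript length, the steadily made ligands were the most abundant. Ccl21a, the Ccr7 ligand of lymphatic endothelium, had 51.3 to 108 TPM (transcripts per kilobase scaled to the library), and Cxcl12, the ligand of Cxcr4, had 38.7 to 55.7. Cxcr4 was the most abundant receptor, at 15.0 to 19.5 TPM. The lowest medians over the libraries were those of Xcr1, the receptor of cross-presenting dendritic cells, at 0.06 TPM, and Ccr6 at 0.09 TPM. The 18 symbols below the count limit include Ccr3, Cxcr3 and Ccr9, receptors for Ccl11, for Cxcl9 and Cxcl10, and for Ccl25. Ccr3 had 0 to 17 counts a library and Cxcr3 0 to 12. The other symbols under the limit were Ccl1, Ccl17, Ccl20, Ccl22, Ccl26, Ccl28, Ccr4, Ccr8, Cxcl2, Cxcl3, Cxcl11, Cxcl15, Cxcl17, Cxcr1 and Xcl1, of which Ccl28, Cxcl15 and Xcl1 had no count in any library. Of the 38 genes, 31 had over 3 counts in all 6 libraries.

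**Figure D1:**
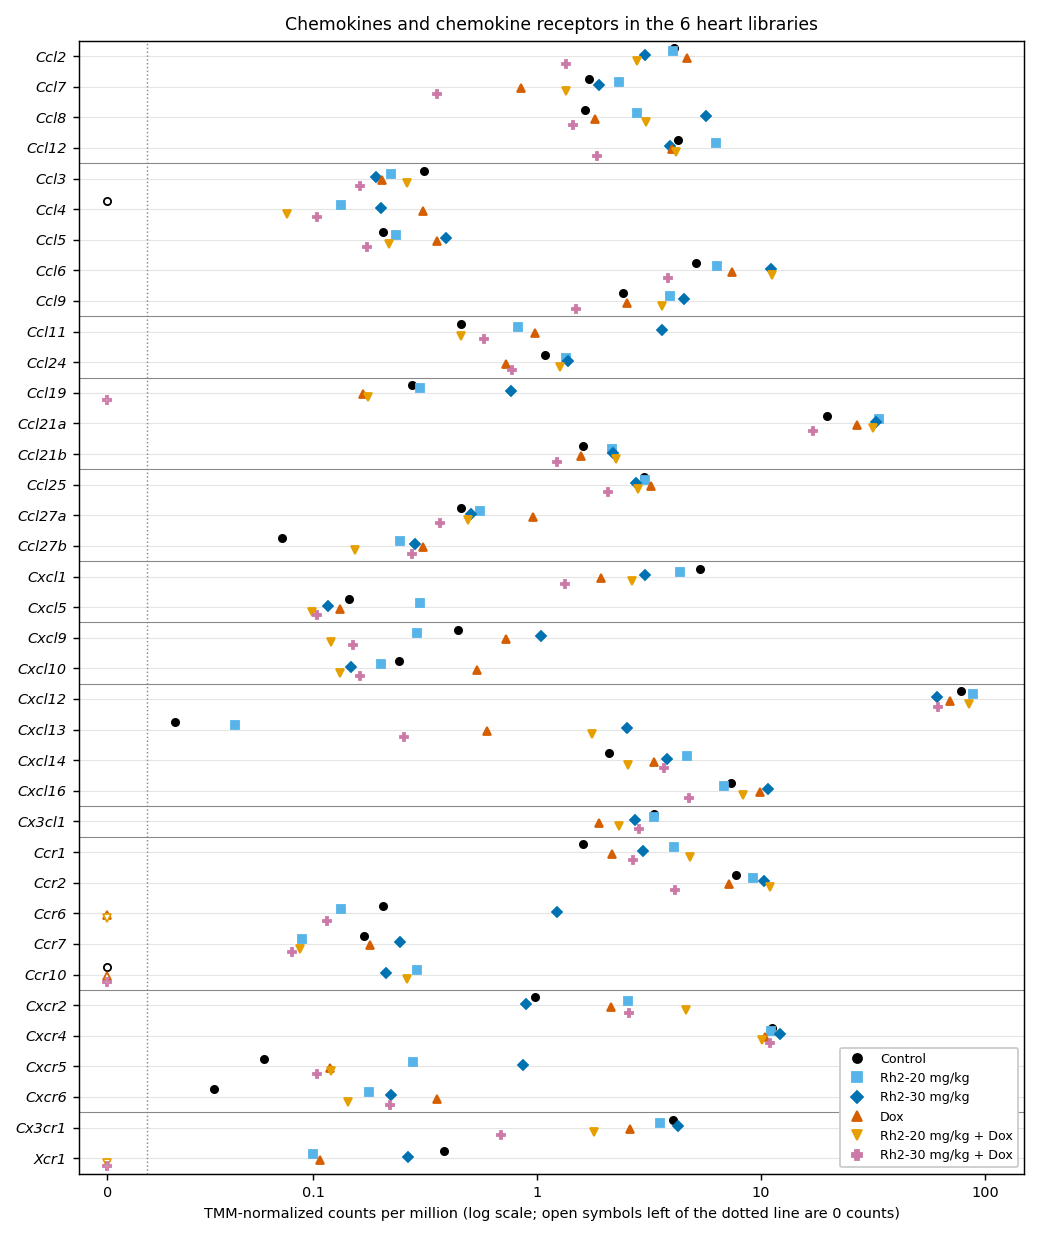
TMM-normalized CPM (log scale) of 37 of the genes in each of the 6 libraries, grouped by role from top to bottom, with open symbols for libraries at 0 counts. Values can be compared between libraries within a gene, not between genes of different length. Cxcl12 and Ccl21a lie to the right in all 6 libraries, and Ccl4, Ccl19, Ccr6, Ccr10 and Xcr1 have libraries at 0.

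The first comparison asks how the hearts given Dox alone differed from Control. In the Dox library 8 of the 38 genes were called higher and 4 lower, where 4.69% of all tested genes were called higher and 2.92% lower. Their median log2 fold change was 0.10, against -0.00458 over all genes. The genes called higher were Ccl4, Ccl11, Ccl27a, Ccl27b, Cxcl10, Cxcl13, Cxcr2 and Cxcr6, and those called lower Ccl7, Cxcl1, Ccr6 and Xcr1. Of these 12 genes, 7 have over 3 counts in every library, and with a coefficient of variation of 0.4 the calls came to 4. Ccl4 met the count limit only through Dox and Xcr1 only through Control, so their calls here cannot decide a difference.

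Each Rh2 dose alone was likewise set against Control. At Rh2-20 mg/kg 8 genes were called higher and 1 lower (2.56% and 2.24% of all genes), with a median log2 fold change of 0.29. At Rh2-30 mg/kg 12 were called higher and 0 lower (7.68% and 1.36% of all genes), with a median of 0.48. With Dox added, 6 genes were called higher and 5 lower than Control at the Rh2 dose of 20 mg/kg (4.4% and 3.1% of all genes), and 5 higher and 9 lower at 30 mg/kg (3.28% and 6.1%). The median of the 38 genes was 0.10 in the former and -0.44 in the latter, which was the only library with a median below 0 against Control, and 28 of its 38 values were negative.

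**Figure D2:**
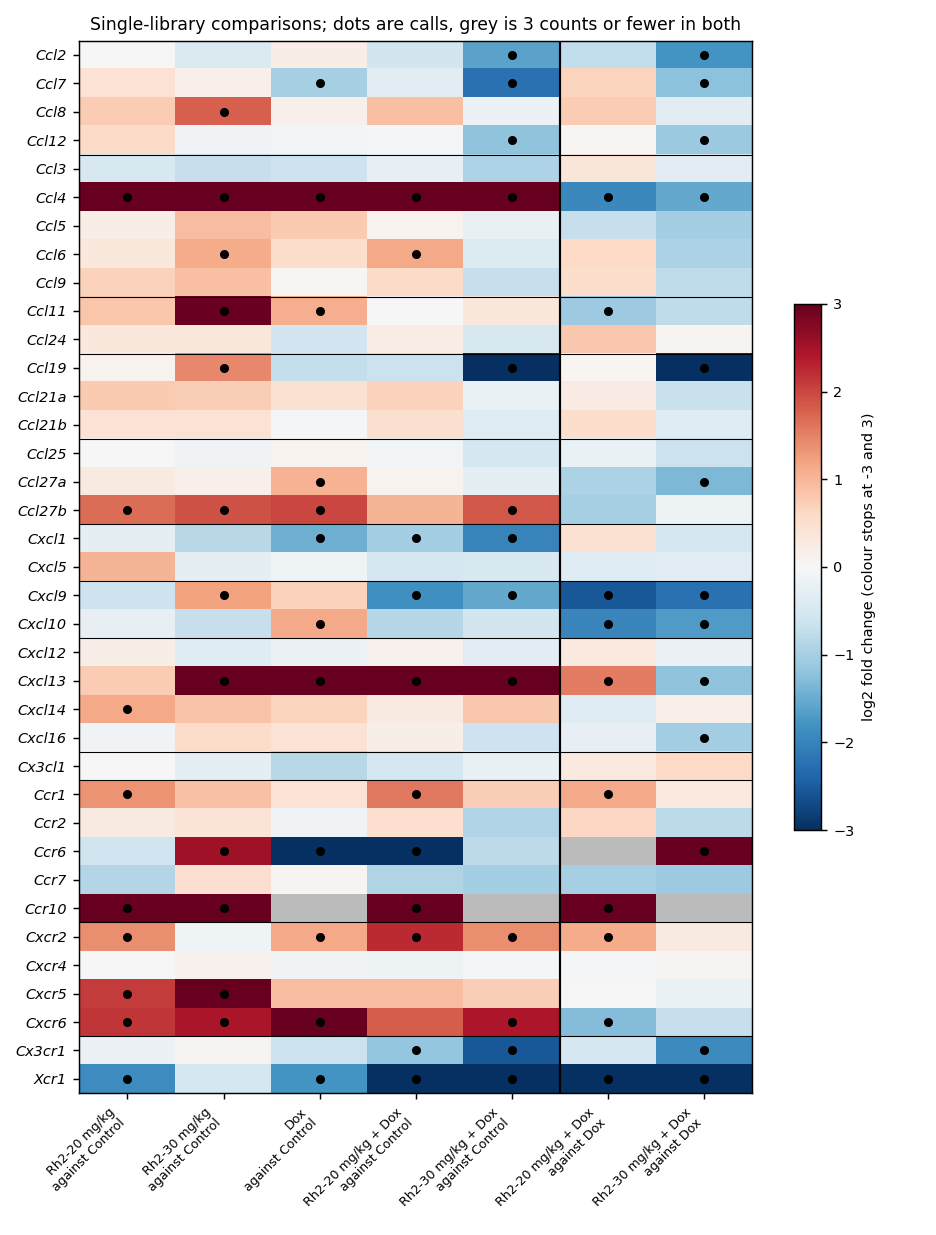
Log2 fold changes of 37 of the genes in the 7 single-library comparisons (columns), 5 against Control and, right of the line, 2 against Dox; black dots mark calls, grey cells have 3 counts or fewer in both libraries. The column of Rh2-30 mg/kg + Dox against Dox is mostly blue, with 12 of the plotted genes called lower and 1 higher.

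The question of what Rh2 changed in hearts given Dox is met by setting each Rh2 + Dox library against Dox. In Rh2-30 mg/kg + Dox 13 of the 38 genes were called lower and 1 higher, where 6.56% of all genes were called lower and 2.22% higher. The median of the 38 was -0.72, against -0.0247 over all genes, and 30 of the 38 values were negative. Ligands made up most of this: 10 of 26 were called lower and 0 higher, with 3 of 12 receptors lower and 1 higher. Among the 31 genes with over 3 counts in all libraries, 9 were called lower and 0 higher. In Rh2-20 mg/kg + Dox the calls were mixed, 4 higher and 6 lower (2.36% and 2.83% of all genes), and the median was 0.03. Both counts fall under a wider spread: with a coefficient of variation of 0.4 the calls were 6 at the higher dose and 4 at the lower, and with the authors' FPKM values plus 1, which mutes low genes, 1 and 0. The ligands Ccl4, Cxcl9 and Cxcl10 and the receptor Xcr1 were called lower than Dox at both doses, in comparisons that share the Dox library. Ccl4 met the count limit only through Dox, its highest library, so its calls cannot decide its difference.

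**Figure D3:**
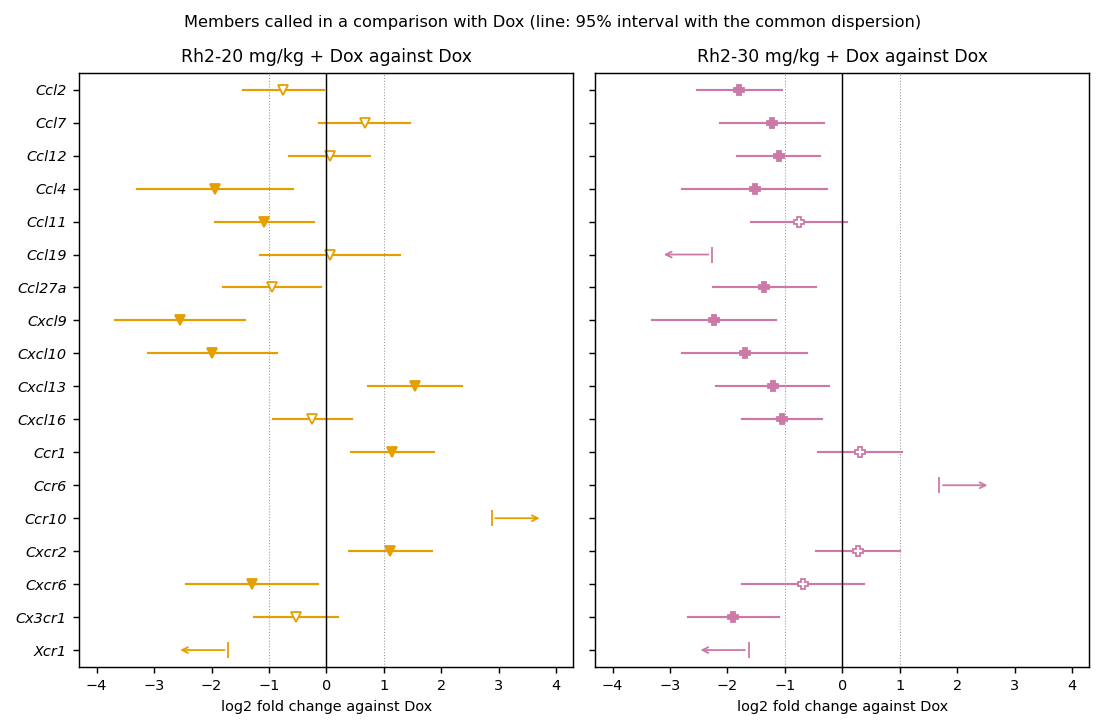
Log2 fold changes against Dox of 18 genes called in either comparison, with 95% intervals that include the common dispersion. Filled symbols are calls. Arrows start at the fold change with 3 counts taken for a count of 0, and carry no interval. On the right, 12 called genes lie below -1 and Ccr6 lies above 1; on the left, Cxcl13, Ccr1, Ccr10 and Cxcr2 lie above 1.

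Among the ligands, the group related to Ccl2, which attract monocytes, was lowest in Rh2-30 mg/kg + Dox. Ccl2, the main ligand of Ccr2, had 340, 363, 288, 393, 255 and 117 counts. Its level in Rh2-30 mg/kg + Dox was 0.331 of Control (log2 -1.60, interval -2.34 to -0.86) and 0.289 of Dox (log2 -1.79, interval -2.53 to -1.05). The other 5 libraries lay within 255 to 393. Ccl7, a second Ccr2 ligand, had 142, 209, 179, 71, 123 and 31 counts, so that the 3 libraries with Dox were the 3 lowest. It was called lower than Control in Dox (log2 -1.01, interval -1.80 to -0.22) and in Rh2-30 mg/kg + Dox (log2 -2.24, interval -3.11 to -1.36). Ccl12, a mouse ligand of Ccr2, had 353, 568, 373, 335, 380 and 160 counts and was called lower than both Control (log2 -1.20, interval -1.93 to -0.47) and Dox (log2 -1.11) in Rh2-30 mg/kg + Dox. The fourth gene of the group, Ccl8, differed: it was highest in Rh2-30 mg/kg, at 538 counts against 125 to 280 elsewhere. It is named after its values were seen, with a call against Control there at a log2 fold change of 1.79 (interval 1.07 to 2.52). Ccl2, Ccl7, Ccl11, Ccl12 and Ccl8 lie side by side on chromosome 11, between 82035577 and 82116799 on GRCm38.p6, and Ccl2, Ccl7, Ccl8 and Ccl12 are similar in sequence, so reads may have been shared among them.

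Among the ligands of the macrophage inflammatory protein group, Ccl6 was the most abundant, with 426, 570, 1047, 620, 1025 and 332 counts. Ccl6, a Ccr1 ligand of macrophages, was called higher than Control in Rh2-30 mg/kg (2.16-fold) and in Rh2-20 mg/kg + Dox (2.19-fold). Ccl4, a chemokine of activated macrophages and lymphocytes, had 0, 12, 19, 26, 7 and 9 counts. As Control had none, 3 counts were taken for it, which put the level at 2.12-fold in Rh2-20 mg/kg + Dox and 8.59-fold in Dox. These folds leave out the error of the other library's count. The log2 intervals were -0.34 to 8.03, which includes no change, and 1.63 to 9.81. Both Rh2 + Dox libraries were called lower than Dox for Ccl4, at log2 -1.94 (interval -3.29 to -0.59) and -1.53 (interval -2.79 to -0.26). As Ccl4 met the count limit only through the Dox library, comparisons with that library cannot decide its difference. The RefSeq spans of Ccl3 and Ccl4 overlap on chromosome 11, which makes the split of their few reads uncertain. Ccl3 (14 to 26 counts), Ccl5 (15 to 37) and Ccl9 (130 to 429) were called in no comparison.

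The eotaxin Ccl11, which attracts eosinophils through Ccr3, had 38, 74, 341, 82, 42 and 50 counts. It was 7.80-fold higher in Rh2-30 mg/kg than in Control (log2 2.96, interval 2.14 to 3.79). That library is the one with high white fat, B cell, brown fat, airway and mesothelium transcripts, and it had the highest summed fibroblast markers, 1539 CPM against 812 to 1231. The part of these in the Ccl11 level was not tested. Ccl11 was also called higher in Dox (log2 1.09, interval 0.22 to 1.96), and lower in Rh2-20 mg/kg + Dox than in Dox (log2 -1.08, interval -1.94 to -0.22). Ccl24, the other eotaxin, had 61 to 130 counts and was called in no comparison.

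Of the Ccr7 ligands, which draw T cells and dendritic cells to lymphatic vessels and lymph nodes, Ccl19 varied most. Its counts were 23, 27, 72, 14, 16 and 0. It was called higher than Control in Rh2-30 mg/kg (log2 1.44, interval 0.49 to 2.39). In Rh2-30 mg/kg + Dox, with 3 counts taken for its 0, it was 8.0-fold lower than Control and 4.83-fold lower than Dox. The log2 intervals there reached up to -1.49 and -0.76. Ccl21a had 1634, 3027, 3097, 2260, 2903 and 1480 counts and was called in no comparison, its log2 fold changes against Control running from -0.20 to 0.78. Ccl21b is a near copy of Ccl21a, so their reads cannot be separated with certainty. Of the 6 lymphatic endothelium markers, 4 or 5 were above Control in each of the other libraries, with median log2 fold changes of 0.27 to 0.47. Prox1, named after its values were seen, was below Control in each of them, at log2 -0.90 to -0.12. The summed markers were 220.8, 222.5, 198.7, 260.7, 267.5 and 236.8 CPM. They were lowest in Rh2-30 mg/kg, the library with the most Ccl21a counts. Lyve1, a hyaluronan receptor that macrophages carry too, had 613, 1318, 1672, 1166, 1665 and 1025 counts. The part of these markers in the Ccl21a level was not tested.

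Ccl27a and Ccl27b, skin-type ligands of Ccr10, are near copies of each other. Ccl27b had 6, 22, 27, 26, 14 and 24 counts and was called higher than Control in 4 of 5 libraries, with log2 fold changes of 1.68 to 2.02. Ccl27a had 38, 50, 48, 80, 45 and 32 counts and was called higher than Control in Dox (log2 1.05) and lower than Dox in Rh2-30 mg/kg + Dox (log2 -1.36). In the authors' FPKM values plus 1 the Dox difference turned to -0.0626, so its direction depends on the unit. Ccl25, a ligand of Ccr9, had 179 to 273 counts and no call.

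Cxcl1, a neutrophil attractant that binds Cxcr2, was the ligand with the clearest relation to Dox. Its counts were 446, 392, 286, 162, 242 and 116. Every library with Dox was below every library without it, and all 3 Dox libraries were called lower than Control, at 0.361 of its level with Dox alone (interval of the log2 value -2.19 to -0.75), 0.494 with the lower Rh2 dose added (-1.73 to -0.31) and 0.250 with the higher (-2.74 to -1.26). Rh2 made no called difference to it, either alone against Control or with Dox against Dox. Cxcl5, its relative, had 9 to 27 counts and no call.

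Cxcl9 and Cxcl10, interferon-induced ligands of Cxcr3, were few in number. Cxcl10 had 20, 18, 14, 45, 12 and 14 counts and so was high in 1 library, Dox (2.20-fold over Control, log2 1.14, interval 0.13 to 2.15). It was lower than Dox at log2 -1.99 (interval -3.11 to -0.86) with Rh2-20 mg/kg and -1.70 (interval -2.78 to -0.61) with Rh2-30 mg/kg. Cxcl9 had 37, 26, 98, 61, 11 and 13 counts. Against Dox it was lower at log2 -2.54 (interval -3.67 to -1.41) and -2.23 (interval -3.32 to -1.15), and against Control both Rh2 + Dox libraries were called lower too. The library with the most Cxcl9 was Rh2-30 mg/kg, and the one with the most Cxcl10 was Dox.

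Of the other CXC ligands, Cxcl13, which draws B cells through Cxcr5, spanned the widest range, with 2, 4, 238, 50, 160 and 22 counts. Control had 2 counts, so the ratios rest on counting error: log2 4.32 in Dox (counting interval 2.70 to 7.72), 6.41 in Rh2-30 mg/kg (4.84 to 9.76), and with both agents 5.88 at the lower Rh2 dose (4.31 to 9.24) and 3.12 at the higher (1.37 to 6.53). Between libraries with more counts, Rh2-20 mg/kg + Dox was 2.92-fold above Dox, and Rh2-30 mg/kg + Dox was 0.431 of Dox. Cxcl12 had 6525, 7946, 5799, 5873, 7798 and 5376 counts, and its log2 fold changes against Control stayed between -0.36 and 0.17 with no call. Cxcl16, the membrane-bound ligand of Cxcr6, had 610, 616, 1020, 829, 763 and 413 counts and was called once, in Rh2-30 mg/kg + Dox against Dox (log2 -1.05, interval -1.75 to -0.36). Cxcl14, a ligand made by epithelium and fibroblasts, had 175, 419, 359, 280, 233 and 321 counts and was called once, in Rh2-20 mg/kg (2.21-fold over Control). Cx3cl1, the endothelial ligand of Cx3cr1, had 158 to 300 counts and no call.

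Turning to the receptors, Ccr1 and Cxcr2, both carried by neutrophils, were both highest in Rh2-20 mg/kg + Dox. Ccr1 had 133, 366, 280, 182, 440 and 232 counts and was called higher than Control in Rh2-20 mg/kg (2.54-fold, interval of the log2 value 0.61 to 2.08) and in Rh2-20 mg/kg + Dox (3.00-fold, 0.85 to 2.32). Cxcr2 had 81, 230, 84, 179, 422 and 223 counts and was called higher than Control in 4 libraries, by 2.18-fold in Dox, 2.62-fold in Rh2-20 mg/kg, 2.63-fold in Rh2-30 mg/kg + Dox and 4.71-fold in Rh2-20 mg/kg + Dox. Both were also higher in Rh2-20 mg/kg + Dox than in Dox (2.21-fold and 2.16-fold). Summed neutrophil markers, of which 7 of 8 were tested, were 16.4, 30.7, 18.0, 17.7, 47.9 and 28.7 CPM in the same order of libraries, also highest in Rh2-20 mg/kg + Dox. Of those 7 markers, 4 were called higher than Control in Rh2-20 mg/kg, 1 in Dox, and with both agents all 7 at the lower Rh2 dose and 4 at the higher. Mmp8, a neutrophil collagenase, had 29, 98, 51, 42, 274 and 167 counts. In Dox, where Cxcr2 was called higher, the neutrophil sum was 17.7 CPM against 16.4 in Control. Monocyte markers were also highest in Rh2-20 mg/kg + Dox, at 87.05 CPM against 53.5 to 83.7 elsewhere. Of the 6, 3 were called higher than Control there and 0 lower. What part of the receptor differences goes with either list was not tested.

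The receptors of macrophages and monocytes Ccr2 and Cx3cr1 were lowest in Rh2-30 mg/kg + Dox. Cx3cr1, the fractalkine receptor, had 336, 319, 404, 218, 165 and 60 counts. It was called lower than Control in Rh2-20 mg/kg + Dox (log2 -1.16, interval -1.89 to -0.43) and in Rh2-30 mg/kg + Dox (log2 -2.54, interval -3.32 to -1.75), and the latter was lower than Dox as well (log2 -1.90, interval -2.69 to -1.11). Ccr2 had 641, 832, 976, 601, 1006 and 360 counts, with no call and its lowest log2 fold change, -0.89, in that same library. The 12 macrophage markers summed to 384, 508, 586, 344, 479.5 and 330 CPM. Against Control, 2 of the 12 were called lower in Rh2-30 mg/kg + Dox, Adgre1 and Fcgr1 (named after their values were seen), and 0 higher. In all, 9 of the 12 were below Control there and 3 above, with a median log2 fold change of -0.51. The 6 monocyte markers went otherwise: in that library 4 of the 6 were above Control, with a median of 0.30, and they summed to 75.5 CPM against 53.5 in Control. The part of either list in these values was not tested.

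Cxcr5 and Ccr6, receptors of B cells, were high in Rh2-30 mg/kg. Cxcr5 had 5, 25, 82, 10, 11 and 9 counts and was called higher than Control in Rh2-30 mg/kg (log2 3.73, interval 2.31 to 5.15) and in Rh2-20 mg/kg (log2 2.11, interval 0.62 to 3.60). Ccr6 had 17, 12, 116, 0, 0 and 10 counts and was 5.86-fold above Control in Rh2-30 mg/kg. It met the count limit only through that library, so this comparison cannot decide its difference. Dox and Rh2-20 mg/kg + Dox had none, 5.72-fold and 6.23-fold lower than Control with 3 counts taken for each 0. Their log2 intervals reached up to -1.02 and -1.09. In Rh2-30 mg/kg all 6 B cell markers were called higher than Control, with a median log2 fold change of 1.42. Ms4a1, a B cell surface protein chosen here after its values were seen, had 16, 34, 174, 9, 25 and 5 counts. The B cell markers in the 3 Dox libraries summed to 7.43 to 11.4 CPM, below the 14.2 to 36.7 of the others. Cxcl13 did not follow them in Rh2-20 mg/kg + Dox, where it had 160 counts and the markers 10.3 CPM. The part of the B cell markers in the receptor levels was not tested.

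**Figure D4:**
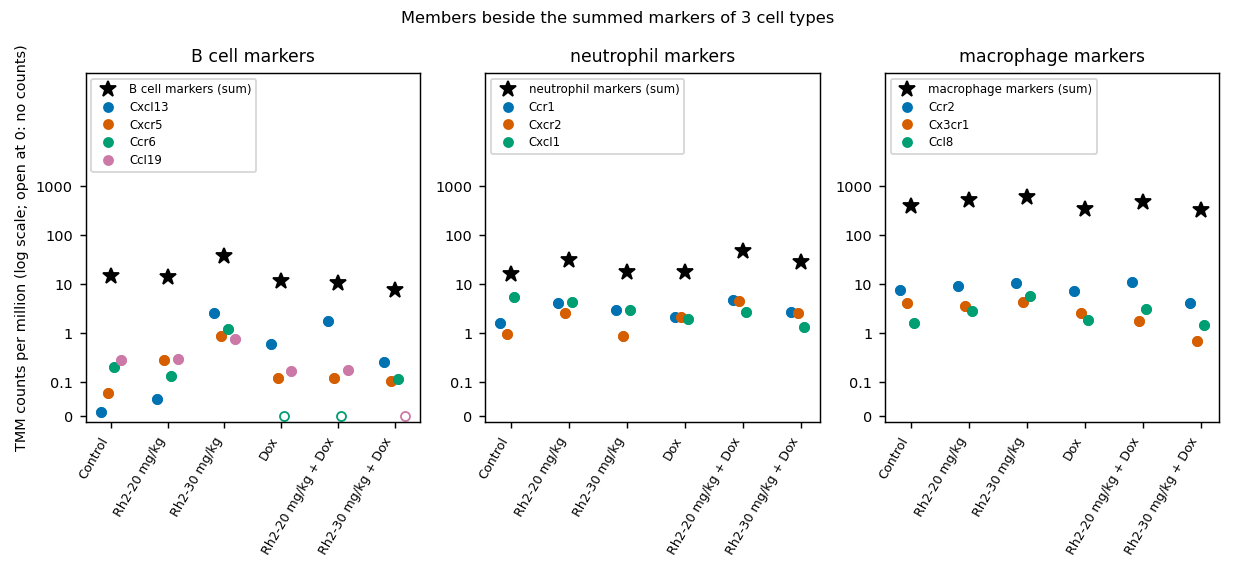
CPM (log scale) of selected members and of the summed markers of B cells (6 genes), neutrophils (7 of 8 tested) and macrophages (12 genes) in the 6 libraries, with open circles for 0 counts. Cxcr5 and Ccr6 peak with the B cell markers in Rh2-30 mg/kg, and Ccr1 and Cxcr2 are highest in Rh2-20 mg/kg + Dox, as the neutrophil markers are.

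The remaining receptors were measured with few counts, except Cxcr4. Cxcr4, the Cxcl12 receptor, had 933, 1001, 1154, 873, 920 and 950 counts and varied least, with log2 fold changes against Control of -0.16 to 0.12. Cxcr6, the Cxcl16 receptor of T and NK cells, had 3, 16, 21, 30, 13 and 19 counts. With 3 counts in Control its ratios rest on counting error, the largest being log2 3.11 in Dox (counting interval 1.62 to 5.67), and it was called lower than Dox in Rh2-20 mg/kg + Dox (log2 -1.30, interval -2.44 to -0.15). Xcr1 had 32, 9, 25, 9, 0 and 0 counts and was called lower than Control in 4 of 5 libraries. It met the count limit only through Control, its highest library, so the calls against Control cannot decide its difference. In Rh2-20 mg/kg + Dox it was 11.7-fold lower and in Rh2-30 mg/kg + Dox 11.1-fold lower, with 3 counts taken for each 0. The log2 intervals there reached up to -2.01 and -1.97. Dendritic cell markers summed to 45, 40.3, 29.9, 37.4, 36.1 and 29.5 CPM, a sum carried mostly by Zbtb46. By gene, 5 of the 6 were below Control in each of the 3 libraries with Dox, with median log2 fold changes of -0.62, -0.76 and -0.59, and their part in the Xcr1 level was not tested. Ccr10, the Ccl27 receptor, had 0, 26, 20, 0, 24 and 0 counts, so it was at 0 in both libraries without Rh2 and in 1 of the 4 with it. Where it was seen, it was 5.86-fold to 8.02-fold above Control with 3 counts taken for Control, and the log2 intervals began at 1.17 to 1.58. Ccr7, the receptor of Ccl19 and Ccl21a, had 7 to 23 counts and no call.

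The 3 libraries with Dox were then tested against the 3 without it, as the only grouping with 3 libraries a side. The libraries of a side differ in Rh2 dose, so they are not replicates of 1 treatment, and they may differ by more than the treatment. By edgeR's quasi-likelihood test, adjusted over all 18328 genes, 0 of the 38 genes passed an adjusted p of 0.05, as did 0.0273% of all genes. By DESeq2's Wald test 1 of the 38 did, Cxcl1, and 425 of the 18328 genes. At an unadjusted p under 0.05, 0 were higher and 5 lower (4.2% and 5.91% of all genes), among them Cxcl1, Ccl7, Cx3cr1 and Ccr6. With Rh2 dose as a term, which matches the libraries by dose, 1 was higher and 6 lower (664 and 934 of all genes), and 0 passed the adjusted threshold. Of the 38 log2 fold changes 30 were negative, with a median of -0.32. The ranges of the 2 sides did not overlap for 7 genes, all lower with Dox (9.16% of all genes), and for 0 that were higher (7.85%).

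Cxcl1 had the smallest adjusted p, with 1.97 ± 0.654 CPM with Dox and 4.24 ± 1.17 without (SD, n = 3 libraries each), a log2 fold change of -1.11 ± 0.31 (SE) and an edgeR adjusted p of 0.344. Ccl7 had 0.848 ± 0.493 CPM against 1.97 ± 0.317, and Cx3cr1 had 1.70 ± 0.956 against 3.95 ± 0.367. In each of these the side with Dox was the more spread of the 2 in relation to its mean, with Rh2-30 mg/kg + Dox at the bottom. Cxcr4 was also among the 7, with 10.9 CPM in its highest library with Dox and 11.1 in its lowest without. Ccl19 and Ccr6 were among the 7 as well, with few counts. Ccr6 had 116 counts in Rh2-30 mg/kg and 0 to 17 elsewhere. It met the count limit only through that library without Dox, so these comparisons cannot decide its difference. Cxcr2 went the other way, 3.10 ± 1.32 CPM with Dox and 1.47 ± 0.939 without, with overlapping ranges and an edgeR adjusted p of 0.523. Taking the 3 Rh2 doses one at a time (0, 20 and 30 mg/kg), 11 of the 38 genes were lower with Dox at each dose and 1, Cxcr2, was higher at each (28.9% and 2.63%), against 17.6% and 15.9% of all genes. Beside these, at an unadjusted p under 0.05 with Dox, 5 of 6 B cell, 3 of 6 dendritic cell, 2 of 5 mast cell and 1 of 12 macrophage markers were lower. Higher were 5 of 5 platelet, 2 of 6 monocyte, 1 of 7 neutrophil and 1 of 7 cardiomyocyte markers, and all 7 neutrophil values were positive. Brown fat had 2 of 4 lower, and fibroblast and blood endothelium 1 of 6 each. T cell markers had 2 of 4 each way and lymphatic endothelium 1 of 6 each way. The part of these lists was not tested.

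**Figure D5:**
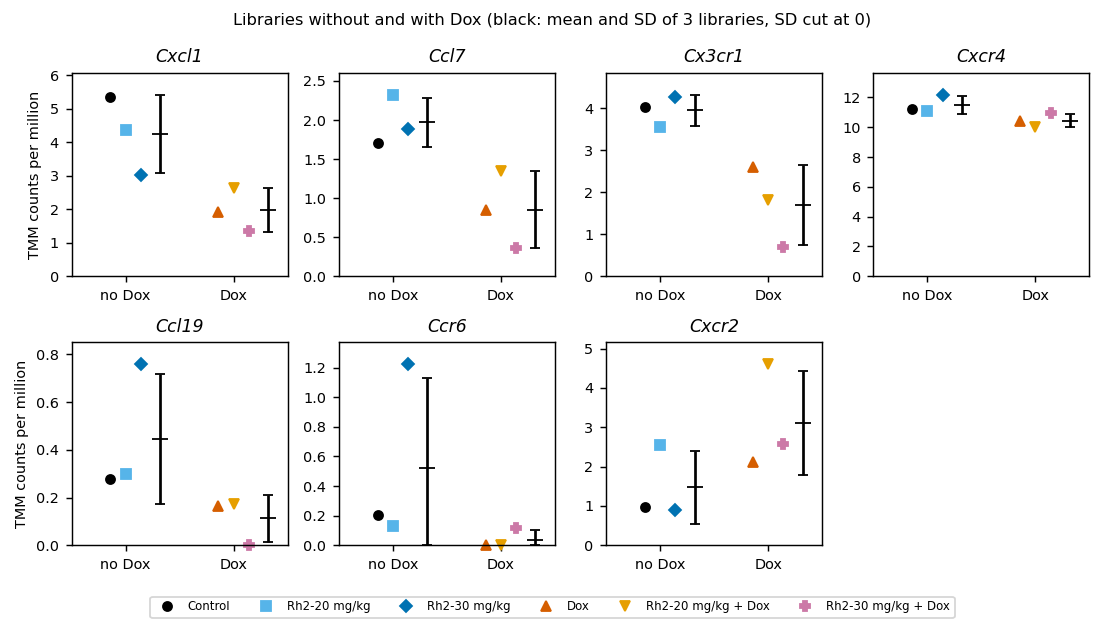
CPM of 7 genes in the 3 libraries without Dox and the 3 with Dox, with the mean and SD of each side in black. Cxcl1, Ccl7, Cx3cr1, Cxcr4, Ccl19 and Ccr6 have ranges that do not overlap; Cxcr2 has overlapping ranges.

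The 4 libraries with Rh2 were tested against the 2 without it in a model that holds Dox as a term. No gene of the 38 passed an adjusted p of 0.05 in edgeR (smallest 0.567) or by DESeq2, where 242 of all genes did, and in edgeR 0 of all genes did (0%). At an unadjusted p under 0.05, 2 were higher, Ccr1 and Ccr10, and 1 lower, Cxcl10 (4.09% and 4.65% of all genes). Ccr10 had 0 counts in both libraries without Rh2 and met the count limit only through libraries with it, so this test cannot decide its difference. Ccr1 had 3.62 ± 0.990 CPM (SD, n = 4) with Rh2 and 1.6 and 2.17 in the 2 libraries without it, a log2 fold change of 0.96 ± 0.31 (SE). Cxcl10 had 0.160 ± 0.0294 CPM (SD, n = 4) against 0.240 and 0.535. Only Ccr1 was higher without overlap (9.87% of all genes), and Ccl2 and Cxcl10 were lower without overlap (9.08%). For Ccl2 the values were 1.35 to 4.03 CPM with Rh2 and 4.08 and 4.68 without, so the gap was narrow. The count of 3 rests on single libraries: it was 1 without Rh2-20 mg/kg, 1 without Rh2-20 mg/kg + Dox and 7 without Rh2-30 mg/kg + Dox.

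The rest of the pathway was read from 3 lists, to be set beside the shares of all genes called lower in Rh2-30 mg/kg + Dox, 6.1% against Control and 6.56% against Dox. Of 24 other genes of chemokine handling and signalling (scavenging receptors, Gi proteins, kinases, arrestins and Rac regulators), 1 was called against Control in each library but the last, and all 3 of those in Rh2-30 mg/kg + Dox were lower: Ackr1 and, named after their values were seen, Ackr4 and Rac2. Ackr1, the receptor of venular endothelium that presents chemokines to leukocytes, had 30, 31, 94, 67, 72 and 9 counts. In Rh2-30 mg/kg + Dox 22 of the 24 were below Control, with a median log2 fold change of -0.44. Of 14 inducers and regulators, 4 were called lower in that library and 0 higher. Tnf, an inducer of many chemokines, had 91, 50, 50, 39, 35 and 32 counts and was called lower than Control in 4 of the 5 libraries. Il6, another inflammatory cytokine, had 34, 23, 31, 10, 18 and 0 counts and was called lower than Control in 2 libraries. Of 11 adhesion genes, 4 were called lower and 0 higher in Rh2-30 mg/kg + Dox than in Dox. Sele, the endothelial E-selectin, had 271, 184, 236, 127, 208 and 63 counts, and Itgal, the leukocyte integrin of LFA-1, had 342, 442, 612, 953, 1194 and 346.

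In Rh2-30 mg/kg + Dox the summed ligand counts were the lowest of the 6 libraries, 9402 against 11959 to 15903 in the others, and so were the summed pathway genes and adhesion genes. Its cardiomyocyte markers were the highest of the 6, at 26960 CPM. Its fibroblast, macrophage, B cell, white fat, platelet, mesothelium, blood endothelium, dendritic cell and NK cell markers were the lowest. White fat markers summed to 0.150 CPM there against 15.7 in Dox, platelet markers to 13.5 against 98.8, and macrophage markers to 330 against 344. Neutrophil and monocyte markers were above Control, at 28.7 against 16.4 CPM and 75.5 against 53.5. With 1 library, the treatment and what is peculiar to that pool of hearts cannot be told apart.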

How the data were processed

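Heart RNA was measured in 6 libraries, 1 per condition, each from 5 pooled hearts. The authors demultiplexed with bcl2fastq 2.20.0, trimmed with Trimmomatic, aligned to mm10 with HISAT2 2.1.0 and quantified with StringTie 2.1.3b. They deposited read counts per gene, and beside them FPKM values and TPM values, which divide by transcript length and depth. How reads shared by similar genes were counted is not given in the sources used here.

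Counts were analysed as deposited in R 4.3.3 with edgeR 4.0.16 on the 18328 of 45777 genes that averaged 10 or more counts, scaled by TMM (factors 0.959 to 1.08). Pairs of libraries were compared by edgeR's exact test with 1 common dispersion of 0.0285, and fold changes used a prior count of 0.5. Intervals cover 95%, and counting intervals cover counting error only. For a fold from a count of 0, 3 counts were taken in its place, and the other library's count was taken as exact. Dox against no Dox, Rh2 against no Rh2 (with Dox as a term) and their interaction were tested by quasi-likelihood in edgeR, and p-values were adjusted by Benjamini-Hochberg over all 18328 genes. DESeq2 1.42.0 was an alternative. The scripts were tested on simulated data. No replicate of a condition exists, so p-values measure only the spread among these libraries.

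Named genes were called in at least 2 of the 5 comparisons with Control, called against Dox, at an unadjusted p under 0.05 in a group fit, or among the 10 highest mean counts. From the other lists, those called in at least 2 comparisons with Control were named, at most 4 a list. The chemokine genes and the lists were chosen with earlier results of these data known. Some genes are not reported here, by name or in the figures, though the counts of calls include them.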

Additional observations from a re-analysis of the deposited data

Results flagged for a closer look

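For 7 of the 38 genes, both Rh2 doses moved the level one way without Dox and the other way with Dox. These are 18.4% of the 38, and 17.8% of all genes tested did the same. Without Dox the libraries were set against Control and with Dox against the Dox library. Ccl11 moved by log2 0.84 and 2.96 at 20 and 30 mg/kg without Dox, and by -1.08 and -0.76 with it. Ccl4 was at 0 counts in Control, and moved by -1.94 and -1.53 with Dox. Cxcr6 moved by 2.13 and 2.45 without Dox, from 3 counts in Control, and by -1.30 and -0.69 with it. Ccl27b moved by 1.68 and 1.90 without Dox and by -0.99 and -0.16 with it, Ccl27a by 0.28 and 0.15 and by -0.95 and -1.36, and Ccl5 by 0.19 and 0.92 and by -0.70 and -1.02. Cx3cl1 went the other way round, by -0.00236 and -0.29 and by 0.30 and 0.59. The difference itself, tested as an interaction by edgeR's quasi-likelihood test, gave an adjusted p of 0.9885 for each of the 7. At an unadjusted p under 0.05 it was passed by 2 of the 38, Ccl4 and Cxcr6 (5.26%, against 2.71% of all genes). Ccl4 met the count limit only through the Dox library, so this test cannot decide its difference.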

How the results depend on the processing

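With 1 library a condition, the number of calls depends on the spread assumed. Setting the coefficient of variation to 0.4 left 2 (of 9) calls in Rh2-20 mg/kg, 4 (of 12) in Dox, and 6 (of 11) and 9 (of 14) with both agents at the lower and higher Rh2 dose, against Control, and 4 (of 10) and 6 (of 14) in the lower and higher Rh2 dose with Dox against Dox. With the dispersion from the likelihood, chosen after seeing the data, they were 7 in Dox against Control, and 6 and 9 against Dox. On the authors' FPKM values plus 1, with a fold of 2 alone, they were 0, 4 (of 12), 1, 1 and 3 against Control in the order used above, with Rh2-30 mg/kg second, and 0 and 1 against Dox; this scale understates the change of low genes, and Ccl27a in Dox turned to -0.0626. With only genes above 0 in every library, the calls in Rh2-20 mg/kg + Dox against Control were 7, since genes at 0 drop out. The other 39 recounts of pair calls stayed within 1.5 times. Of the single-gene fold changes, 88 recomputed values moved by more than the margin of their counting interval, and 1 called value reversed. The other 2004 are not all stable. They include pairs with a count of 0, whose margin has no limit, and changes of sign in pairs that were not called. Ccr10 in Rh2-20 mg/kg against Control went from log2 5.67 to 0.17 on FPKM plus 1 and is among them. In Dox against no Dox, DESeq2's Wald test passed 1 gene. The unadjusted count ran from 4 to 6 when each library was left out, against 1475 to 1688 of all genes. Pairing the libraries by Rh2 dose, as a term, gave 7 with 0 past the adjusted threshold (smallest 0.485). For Rh2, a linear dose term gave 1 at an unadjusted p under 0.05 (2105 of all genes). Leaving out each library with Rh2 gave 1 to 7 (1152 to 1450 of all genes). The cause of these differences was not tested except where stated. The labels carry no replicate numbers to pair by.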

Other observations

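Platelet markers summed to 98.8 and 145 CPM in Dox and Rh2-20 mg/kg + Dox, and to 13.5 to 31.0 CPM in the other 4 libraries. Natural killer cell markers summed to 3.25 CPM in Dox and to 0.852 to 1.67 CPM elsewhere. Mast cell markers summed to 11.4 to 14.2 CPM in the 3 libraries with Dox and to 19.5 to 33.6 CPM in the 3 without. Kit carried most of this sum, with 1894, 1411, 2157, 680, 768 and 687 counts. In counts, Mcpt4 was also lower in every library with Dox, while Cpa3, Cma1 and Tpsb2 overlapped between the sides. Among the symbols under the count limit, Cxcl11, an interferon-induced ligand of Cxcr3, had 0, 8, 0, 19, 4 and 0 counts, highest in Dox as Cxcl10 was. Cxcl2, a Cxcr2 ligand, had 15, 11, 17, 4, 0 and 0 counts, so that the 3 libraries with Dox were the 3 lowest, as for Cxcl1. Both were picked after their values were seen, and no test was made of them.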
